A study of Mus musculus with 18 samples.

Results

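The 3 genes described here, Cxcl9, Cxcl10 and Cxcl11, are those of the chemokines that bind the receptor CXCR3. Cxcl11 is annotated as a polymorphic pseudogene in the mouse, and the 3 genes are called ligands here by family. They were taken by gene identifier from a table of 43629 genes, and all 3 were found. Their transcripts were measured by QuantSeq 3′ mRNA sequencing of bulk RNA in AT3 cells, a mouse mammary carcinoma cell line used as a model of triple-negative breast cancer. The 18 libraries fall into 6 conditions of 3 libraries each. Cells received DMSO vehicle, A-241 at 250 nM or A-485 at 1000 nM for 1 h, and then either vehicle or recombinant murine IFNγ at 1 ng/mL for a further 2 h, so that every culture was exposed to DMSO or a small molecule for 3 h. A-241 and A-485 are chemically distinct inhibitors of the catalytic domain of the lysine acetyltransferases P300 and CBP, and were used at these different doses. The conditions are called DMSO, A-241, A-485, IFNγ, A-241+IFNγ and A-485+IFNγ. The study's methods speak of technical triplicates and the sample labels of biological ones, so p values measure the spread between these libraries, which may be technical. In bulk RNA, fewer cells that express a gene and less RNA per cell cannot be told apart.

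CXCR3 is carried by activated T cells and NK cells, and its ligands draw these cells towards inflamed tissue and tumours. All 3 ligands are known as interferon-induced genes. IFNγ acts through its receptor and the kinases Jak1 and Jak2, and then through transcription factors such as Irf1 that the signal induces. Cxcl10 also responds to NF-κB and to type I interferon, whereas Cxcl9 is known for a closer dependence on IFNγ.

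The 3 genes are neighbours on the minus strand of chromosome 5 (GRCm38, GENCODE vM21) and together span 44139 bases. Cxcl9 (ENSMUSG00000029417) lies at chr5:92321347-92328079 and Cxcl10 (ENSMUSG00000034855) at chr5:92346638-92348889, and both are annotated as protein coding. Cxcl11 (ENSMUSG00000060183) lies at chr5:92359544-92365485 and is annotated as a polymorphic pseudogene, which is a gene that is intact in some mouse strains and disrupted in others. Its counts are therefore a measure of transcript, not of a functional chemokine. The gap between Cxcl9 and Cxcl10 is 18558 bases and that between Cxcl10 and Cxcl11 is 10654 bases. Reads over shared exons were counted for each gene, without regard to strand. Cxcl10 shares 133 exon bases with Art3 on the plus strand, which had at most 3 counts in any condition, and Cxcl11 shares 1582 exon bases with Gm2673 on the plus strand, which had 1 count in all IFNγ libraries and 0 in the other conditions.

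The promoter windows of Cxcl9 and Cxcl10 are shown because the genes lie side by side and responded to the same cytokine, yet their transcripts fell by different amounts under A-241. Each window runs from 250 bases before to 50 bases after the gene's start (RefSeq, GRCm38.p6, minus strand), at chr5:92328030-92328329 for Cxcl9 and chr5:92348840-92349139 for Cxcl10. Cxcl11 had no entry. Capitals mark every match to one of the 4 motifs named after the sequences.
Cxcl9: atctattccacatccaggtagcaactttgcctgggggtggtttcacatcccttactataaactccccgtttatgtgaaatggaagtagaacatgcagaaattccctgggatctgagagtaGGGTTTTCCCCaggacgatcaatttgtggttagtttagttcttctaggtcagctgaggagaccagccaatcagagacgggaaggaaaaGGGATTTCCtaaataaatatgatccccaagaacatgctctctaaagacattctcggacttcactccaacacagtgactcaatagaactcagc
Cxcl10: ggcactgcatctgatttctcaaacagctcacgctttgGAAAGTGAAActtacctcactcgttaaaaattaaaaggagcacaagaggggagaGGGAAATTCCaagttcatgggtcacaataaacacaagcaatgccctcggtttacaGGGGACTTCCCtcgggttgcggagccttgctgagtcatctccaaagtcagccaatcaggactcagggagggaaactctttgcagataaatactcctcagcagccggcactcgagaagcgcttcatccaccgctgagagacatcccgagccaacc
Motifs were searched on both strands, and they were chosen with these sequences in view. The core of an interferon-stimulated response element, GAAANNGAAA, occurred in 3.44% of 32851 promoter windows of the same length, and it occurred once in the Cxcl10 window, from 213 to 204 bases before the start. It did not occur in the Cxcl9 window. The gamma-activated site, TTCNNNGAA, occurred in 8.30% of windows and in neither of these. An NF-κB core, GGGNNTTCC, occurred in 5.82% of windows. It was present 2 times in the Cxcl9 window, from 130 to 122 and from 42 to 34 bases before the start, and 1 time in the Cxcl10 window, from 103 to 95 bases before it. The wider NF-κB form GGGNNNNNCC occurred in 50.8% of windows, with 2 matches for Cxcl9 and 3 for Cxcl10. All of these overlap a match of the first form, except for 1 in the Cxcl10 window, from 159 to 150 bases before the start. These matches describe letters and not binding. Only exact matches to the motif letters were sought, so an element that departs from them would not be marked.

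Between 3417167 and 7856830 counts were obtained per library (median 4880947.5). Levels are in CPM, the reads of a gene relative to the library's total, scaled by TMM factors, and each read comes from the 3′ end of a transcript, so levels are not divided by length. At this depth 3 counts in a library correspond to between 0.382 and 0.878 CPM of the unscaled total. A single locus, Gm42418, took 20.1% of the counts of DMSO replicate 3 and 23.0% of those of IFNγ replicate 2, against 7.11% to 16.2% in the other 16 libraries. The second of these libraries was the lowest of the IFNγ libraries for Cxcl9 and Cxcl10, and values without both are given where they change a call. Of the 8 epithelial markers examined, 6 or 7 had counts in each condition. Krt8, Krt18, Krt14, Krt5, Epcam and Cdh1 passed the filter on low counts, whereas Krt19 had 1 count in all libraries. The summed level of the list was 1323 to 1496 CPM with IFNγ, 965.0 to 1109 CPM with A-241+IFNγ and 1033 to 1181 CPM with A-485+IFNγ. Macrophages, T cells and NK cells can make or receive CXCR3 ligands, and the sums of their markers lay below the epithelial sum. The 8 myeloid markers summed to between 10.01 and 45.72 CPM per library. Lyz2 reached 31.42 and Ptprc 16.96 CPM with A-485, and Cd14 13.29 CPM with IFNγ, whereas Adgre1 and Itgax had 0 counts. The 6 T and NK cell markers summed to at most 6.274 CPM, with Cd3d at up to 3.021 CPM with A-485 and Ncr1 at 0. The highest sums of both lists were in A-485 libraries. The 4 endothelial markers summed to at most 4.125 CPM, with Pecam1 at up to 4.125 CPM and Cdh5 and Tek at 0, and the 6 fibroblast markers to at most 4.492 CPM. The part of any of these lists in the results was not tested.

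The first question was how far IFNγ induced each ligand. In unstimulated AT3 cells the 3 transcripts were close to absent, and after 2 h of IFNγ they were present in every library. Cxcl9 had 2, 0 and 0 counts in the DMSO libraries and 1221, 328 and 1014 counts in the IFNγ libraries, or 150.1, 97.71 and 177.3 CPM. Cxcl10, the most abundant of the 3 in counts, had 4, 8 and 5 counts with DMSO and 2439, 406 and 1429 with IFNγ, or 299.8, 120.9 and 249.9 CPM. Cxcl11 had 0 counts in all 9 libraries without IFNγ and 28, 12 and 17 counts with IFNγ, or 3.441, 3.575 and 2.973 CPM. The IFNγ libraries all lay above the DMSO libraries for each of the 3, as they did for 4.16% of genes. IFNγ replicate 2 was the lowest of its group for Cxcl9 and Cxcl10, but was the highest for Cxcl11.

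All comparisons used edgeR's quasi-likelihood test, and a gene was called at a Benjamini-Hochberg adjusted p below 0.01 over 11964 genes. All 3 ligands passed the filter on low counts, and each did so through its IFNγ-treated libraries alone. Of the genes tested, 1.20% were called higher with IFNγ than with DMSO. Cxcl10 was called higher by 7.48 on the log2 scale (SE 0.47, adjusted p = 3.52e-08). Cxcl9 was called too (adjusted p = 1.67e-08), and because DMSO gave only 2 counts its size is stated as a ratio of scaled counts, 1040, with an exact 95% interval of 287.7 to 8594. Such intervals cover counting error only. For Cxcl11, whose DMSO libraries were at 0, a floor of 3 counts over the group gives an increase of at least 15.42-fold (adjusted p = 0.0027). The Cxcl11 call was lost when only the 2 groups compared were fitted (adjusted p = 0.0741) and without DMSO replicate 1 (0.0127), DMSO replicate 2 (0.0148) or IFNγ replicate 1 (0.0103).

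**Figure D1:**
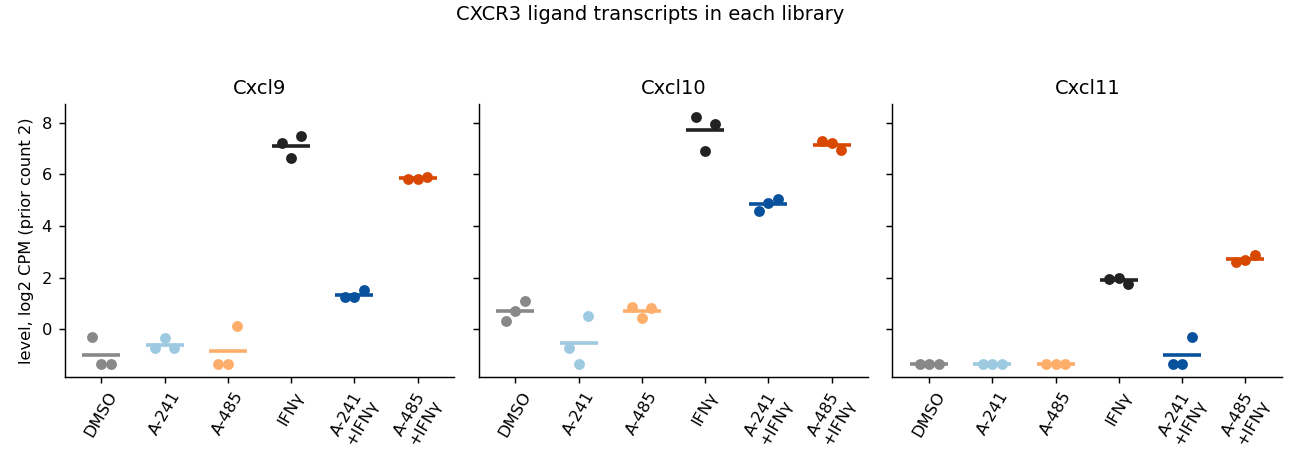
Level of Cxcl9, Cxcl10 and Cxcl11 in log2 CPM (prior count of 2, y axis) in each library (points) of the 6 conditions (x axis), with the mean of each condition as a line. A count of 0 lies at the bottom of the scale. In the A-241+IFNγ libraries Cxcl9 lay between 1.957 and 2.475 CPM and Cxcl10 between 23.49 and 32.38 CPM, and for both the IFNγ libraries lay above.

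The order of the conditions differed between the genes. For Cxcl9 the mean level was 141.7 ± 40.46 CPM with IFNγ (SD, n = 3), 57.05 ± 1.627 with A-485+IFNγ and 2.13 ± 0.2987 with A-241+IFNγ, with no overlap between neighbours in this order. The 3 conditions without IFNγ followed at 0.2739 CPM or less, where the libraries overlapped. For Cxcl10 the means were 223.5 ± 92.28 CPM with IFNγ and 142.1 ± 16.86 with A-485+IFNγ, whose libraries overlapped, and then 28.46 ± 4.535 with A-241+IFNγ, which overlapped neither of them. DMSO, A-485 and A-241 followed at 1.278, 1.254 and 0.4213 CPM. Cxcl11 had another order, with A-485+IFNγ at 6.293 ± 0.663 CPM above IFNγ at 3.33 ± 0.3162. A-241+IFNγ came next at 0.1375 CPM and overlapped the conditions at 0.

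The second question was whether P300/CBP inhibition limited this induction. Co-treatment with A-241 left all 3 ligands lower in every library than in any library with IFNγ alone. Cxcl9 had 9, 12 and 12 counts in the A-241+IFNγ libraries, or 1.958, 1.957 and 2.475 CPM. Cxcl10 had 108, 181 and 157 counts, or 23.49, 29.52 and 32.38 CPM. Cxcl11 had 0, 0 and 2 counts. The groups did not overlap for any of the 3, as was the case for 12.1% of genes in the lower direction, and the levels that remained differed between the genes. Of all genes tested, 3.54% were called lower with A-241+IFNγ than with IFNγ.

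Cxcl9 fell by 6.05 on the log2 scale under A-241 (SE 0.41, adjusted p = 1.68e-07), which left 1.513% of its IFNγ level (95% interval 0.8331% to 2.748%). Cxcl10 fell by 2.97 on the log2 scale (SE 0.35, adjusted p = 3.61e-05), and 12.73% of its level remained (7.644% to 21.2%). The interval for Cxcl9 lay below that for Cxcl10. Cxcl11 was called lower as well (adjusted p = 0.0027). It fell from 57 counts in 3 libraries to 2, a ratio of scaled counts of 25.79 with an exact interval of 6.821 to 218.1. The Cxcl11 call was lost when only the 2 groups were fitted (adjusted p = 0.0306) and without A-241+IFNγ replicate 1 (0.0145) or replicate 2 (0.0143).

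With A-485 the picture was not the same for the 3 genes. Cxcl9 had 295, 274 and 310 counts in the A-485+IFNγ libraries, or 56.46, 55.8 and 58.89 CPM, all below the 3 IFNγ libraries. Cxcl10 had 817, 719 and 650 counts, or 156.4, 146.4 and 123.5 CPM, and overlapped the IFNγ libraries, since IFNγ replicate 2 lay at 120.9 CPM. Cxcl11 had 30, 30 and 37 counts, or 5.741, 6.11 and 7.029 CPM, all above the 3 IFNγ libraries. Cxcl9 thus lay lower and Cxcl11 higher, and neither reached the threshold. The share of all genes called lower in this comparison was 0.535% and that called higher was 0.0167%. Libraries without overlap were common, at 20.6% of genes in either direction and 10.6% in the higher.

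The log2 fold change of Cxcl9 under A-485 was -1.31 (SE 0.31, adjusted p = 0.0377), or 40.21% of the level with IFNγ alone (95% interval 25.61% to 63.13%). It passed the threshold in DESeq2 (adjusted p = 6.37e-05), in limma-voom (0.00938) and in edgeR without IFNγ replicate 2 (0.00396). The log2 fold change of Cxcl10 was -0.66 (SE 0.32, adjusted p = 0.356), or 63.46% (39.65% to 101.6%), and it passed only where DMSO replicate 3 and IFNγ replicate 2 were both left out (-0.96, adjusted p = 0.00259). For Cxcl11 the log2 fold change was 0.92 (SE 0.40, adjusted p = 0.323), or 189.1% (101.8% to 351.3%). Its scaled counts, 97 in all against 57, gave a ratio of 1.902 with an exact interval of 1.357 to 2.686. Both comparisons with IFNγ alone rest on the same 3 IFNγ libraries.

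**Figure D2:**
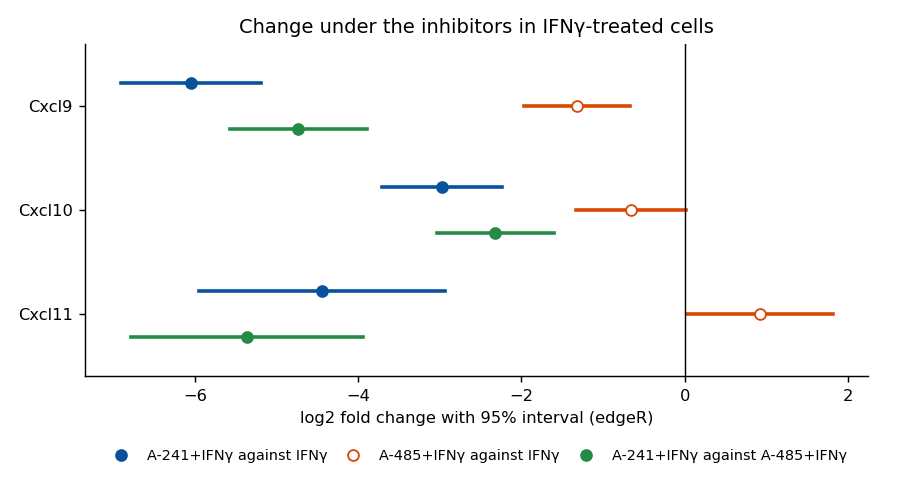
Fitted log2 fold change of each ligand (points, x axis) with its 95% interval (lines) for A-241+IFNγ against IFNγ, A-485+IFNγ against IFNγ and A-241+IFNγ against A-485+IFNγ. Filled points were called at an adjusted p below 0.01. Open points were not, and these are the 3 values for A-485 against IFNγ. The fitted values for Cxcl11 with A-241 rest on 2 counts.

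Set against each other at the doses used, A-241+IFNγ gave lower levels than A-485+IFNγ for each ligand, and the libraries did not overlap, as for 11.8% of genes in the lower direction. This is a difference between the treatments as given, since the dose of A-485 was 1000 nM and that of A-241 was 250 nM. In this comparison 0.510% of all genes were called lower. Cxcl9 was lower by a log2 fold change of -4.73 (SE 0.40, adjusted p = 1.23e-05) and Cxcl10 by one of -2.32 (SE 0.34, adjusted p = 0.00157). Cxcl11 had 2 counts against 97, a ratio of 49.06 (13.22 to 410.9, adjusted p = 0.0025). The Cxcl10 call was lost without any 1 of the A-241+IFNγ libraries (adjusted p from 0.0147 to 0.0203). The Cxcl11 call was lost without A-241+IFNγ replicate 1 (0.0169) or 2 (0.0189), or without A-485+IFNγ replicate 1 (0.0117), 2 (0.0114) or 3 (0.0147).

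A further comparison set each inhibitor with IFNγ against the same inhibitor alone, to measure the response that remained. In the presence of A-241, Cxcl10 still rose, from 1, 0 and 5 counts to 108, 181 and 157. This was an increase of 6.02 on the log2 scale (SE 0.53, adjusted p = 5.93e-06), or a ratio of scaled counts of 69.16 (exact interval 31.52 to 189.5), in a comparison where 0.192% of genes were called higher. The log2 value was 7.81 without A-241 replicate 3 and 5.44 without A-241 replicate 2, and it stayed called. Cxcl9 had 1, 2 and 1 counts with A-241 and 9, 12 and 12 with A-241+IFNγ. Its ratio of 7.675 (2.73 to 29.82) did not pass the threshold (adjusted p = 0.144), although the libraries did not overlap, as for 6.08% of genes in the higher direction. Cxcl11 had 0 counts with A-241 and 2 with A-241+IFNγ, too few for a fold.

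In the presence of A-485 all 3 ligands were called higher with IFNγ, where 0.744% of genes were. Cxcl9 had 0, 0 and 3 counts with A-485 alone, and its ratio was 289.4 (98.69 to 1406, adjusted p = 1.23e-07). Cxcl10 had 8, 5 and 6 counts with A-485 alone and rose by 6.80 on the log2 scale (SE 0.46, adjusted p = 1.23e-07). Cxcl11 rose at least 31.93-fold from 0 counts (adjusted p = 0.000721). The ligands were thus all measurably induced with A-485, and Cxcl10 was the one called with A-241.

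Against DMSO, the net change after co-treatment was an increase for Cxcl9 and Cxcl10 with either inhibitor. With A-241+IFNγ, where 0.894% of genes were called higher, Cxcl10 rose by 4.51 on the log2 scale (SE 0.46, adjusted p = 7.35e-06). The ratio for Cxcl9 was 14.8 (3.785 to 127.3, adjusted p = 0.00671), and this call was lost without DMSO replicate 2 (0.0389), DMSO replicate 3 (0.019) or any 1 of the A-241+IFNγ libraries (0.0182 to 0.0256). With A-485+IFNγ, where 0.894% of genes were also called higher, Cxcl10 rose by 6.83 on the log2 scale (SE 0.47, adjusted p = 1.14e-07). The ratio for Cxcl9 was 398.7 (110.1 to 3298, adjusted p = 1.14e-07), and Cxcl11 was at least 29.34-fold higher (adjusted p = 0.000442), a call lost when only the 2 groups were fitted (0.0112).

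Without IFNγ there was little transcript to compare. Cxcl10 had 17 counts in the 3 DMSO libraries and 6 in the A-241 libraries. The libraries overlapped, and the log2 fold change of -1.51 (SE 0.73, adjusted p = 0.228) was not called, in a comparison where 3.53% of genes were called lower. The ratio of scaled counts, 2.939 in favour of DMSO, had an exact interval of 1.106 to 9.104, which covers counting error and not the spread between libraries. The log2 value was -3.30 without A-241 replicate 3 (adjusted p = 0.0484) and -0.93 without A-241 replicate 2 (0.48). With A-485, Cxcl10 had 19 counts and a log2 fold change of 0.03 (SE 0.59, adjusted p = 0.988), where 0.619% of genes were called lower. The 95% interval of that value, -1.22 to 1.27, leaves a change of either sign. Cxcl9 had 2, 4 and 3 counts with DMSO, A-241 and A-485. The ratio for A-241 against DMSO was 1.928, with an exact interval of 0.2763 to 21.31. A difference in basal Cxcl9 or Cxcl11 was not detectable at this depth.

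The interaction of inhibitor and IFNγ asks whether the response to IFNγ differed between cells with and without the inhibitor, on a log scale. For Cxcl9 and A-241 it was -6.88 (SE 1.44, unadjusted p = 0.000203), with an adjusted p of 0.122, and 0.0334% of genes were called lower in this test. DESeq2 called it (-6.99, adjusted p = 8.77e-05), and in edgeR it was -9.67 without DMSO replicate 1, which held both of the basal DMSO counts, and not called. For Cxcl10 and A-241 it was -1.46 (SE 0.93, adjusted p = 1.0), and it turned to 0.33 without A-241 replicate 3, the library that held 5 of the 6 basal counts. For A-485 the interaction was -1.73 (SE 1.36) for Cxcl9 and -0.68 (SE 0.68) for Cxcl10, each with an adjusted p of 1.0. The Cxcl9 value turned to 1.45 without A-485 replicate 3, which held all 3 of the basal counts. No interaction is given for Cxcl11, which had no counts without IFNγ.

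The make-up of the ligand counts within a library does not depend on scaling. With IFNγ alone Cxcl10 made up 59.55% ± 5.99 (SD, n = 3) of the counts of the 3 genes, Cxcl9 39.43% ± 5.647 and Cxcl11 1.02% ± 0.5112. With A-241+IFNγ the Cxcl9 share was 6.976% ± 0.7382 and that of Cxcl10 92.63% ± 1.025. With A-485+IFNγ the Cxcl9 share was 27.9% ± 2.804, that of Cxcl10 69.01% ± 3.36 and that of Cxcl11 3.09% ± 0.559. The Cxcl9 share thus ranged from 33.11% to 43.97% with IFNγ, from 25.83% to 31.09% with A-485+IFNγ and from 6.218% to 7.692% with A-241+IFNγ, without overlap. How often such shares separate for other sets of genes was not computed. Of the ligand transcripts that remained with A-241, nearly all were Cxcl10.

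**Figure D3:**
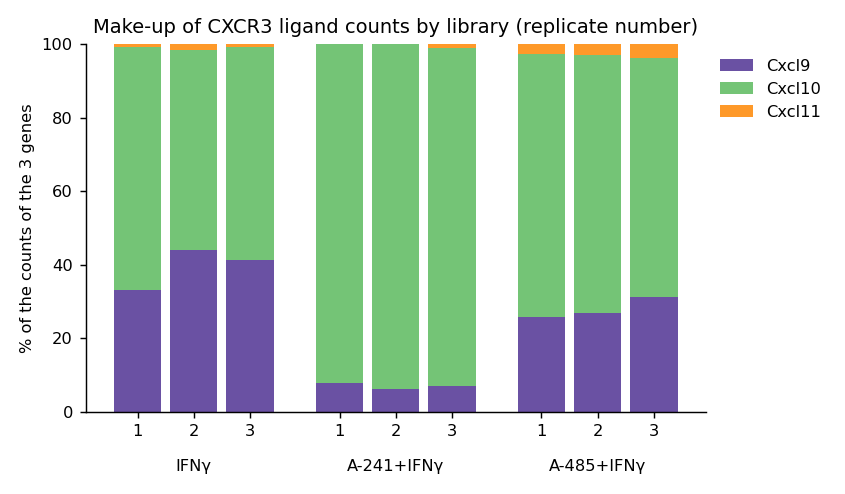
Share of the summed counts of Cxcl9, Cxcl10 and Cxcl11 (y axis, percent) that each gene held in the 9 libraries with IFNγ (bars, by condition and replicate number on the x axis). Cxcl9 held 33.11% to 43.97% with IFNγ, 6.218% to 7.692% with A-241+IFNγ and 25.83% to 31.09% with A-485+IFNγ.

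The log2 ratio of 2 ligands in 1 library, with 0.5 added to each count, was compared between conditions by a two-sided exact permutation test. With 3 libraries against 3 this test cannot give a p below 0.1, so none of the 9 comparisons could pass 0.05. The ratio of Cxcl9 to Cxcl10 was -0.998, -0.31 and -0.49 on the log2 scale with IFNγ and -3.51, -3.86 and -3.65 with A-241+IFNγ. The mean difference was -3.08 (exact p = 0.1). With A-485+IFNγ the ratio was -1.47, -1.39 and -1.07, a difference from IFNγ of -0.71 (exact p = 0.1). Cxcl9 was therefore lower relative to Cxcl10 in every library with an inhibitor and IFNγ than in any with IFNγ alone. How often the ratios of other gene pairs separate in this way was not computed, for this ratio or those that follow. Single genes did not overlap between A-485+IFNγ and IFNγ in 20.6% of cases. The ratio of Cxcl11 to Cxcl10 differed by 1.46 between A-485+IFNγ and IFNγ, and that of Cxcl9 to Cxcl11 by -2.17 (exact p = 0.1 and no overlap for each). Ratios with Cxcl11 in A-241+IFNγ, which are among the 9 comparisons, are not interpreted. In 2 of those 3 libraries Cxcl11 had 0 counts, and the ratio would be set by the 0.5 added.

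The genes whose pattern over the 6 conditions was most like that of each ligand were sought among 9660 genes, by the root mean square difference of the mean log2 CPM after each gene was centred on its own mean. The measure describes 6 condition means from the same libraries and says nothing of shared control. Nearest to Cxcl9 was Iigp1, an interferon-inducible GTPase, at 0.82, followed by Gm12250, Gm43302, Tgtp1 and Tgtp2 at 0.94 to 1.00. Tgtp1 and Tgtp2 are near-identical copies whose reads cannot be told apart with certainty, and Gm43302 shares exons with Gbp10 and Gbp6, members of a family of interferon-inducible guanylate-binding proteins. Gm12250 had 0 counts with DMSO, 887 with IFNγ, 11 with A-241+IFNγ and 157 with A-485+IFNγ. Like the ligands, it passed the filter on low counts through IFNγ-treated libraries. Under A-485 the log2 fold changes of these 5 genes were from -0.99 for Iigp1 to -2.43 for Gm12250, against -1.31 for Cxcl9. Under A-241 they were from -3.41 for Iigp1, the nearest gene, to -6.25 for Gm12250, against -6.05 for Cxcl9.

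Cxcl10 had nearest to it Gm4841 at 0.51, Iigp1 at 0.57, Gbp2 at 0.72 and F830016B08Rik at 0.95, with Cxcl9 the fifth at 1.07. Gbp2, a guanylate-binding protein, had 5587 counts with IFNγ, 1316 with A-241+IFNγ and 3020 with A-485+IFNγ. Seen from Cxcl9, Cxcl10 ranked at 6, so that both ligands had genes elsewhere in the genome nearer to them than each other. For Cxcl11 the nearest were Apol10b, Tbkbp1, Ifi203, Olfr56 and Slamf8, at 0.62 to 0.75, and Olfr56 shares 111 exon bases with Ifi47, another interferon-inducible GTPase gene. All 5 had fewer counts with A-485+IFNγ than with IFNγ, such as 80 against 184 for Apol10b, whereas Cxcl11 had 97 against 57. F830016B08Rik, Olfr56 and Slamf8 had 1 count each with DMSO, and like the ligands they passed the filter on low counts through IFNγ-treated libraries. The low counts of Cxcl11 compress its range on this scale. Seen from Cxcl11, Cxcl9 ranked at 5604 and Cxcl10 at 9474 of the 9660 genes.

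**Figure D4:**
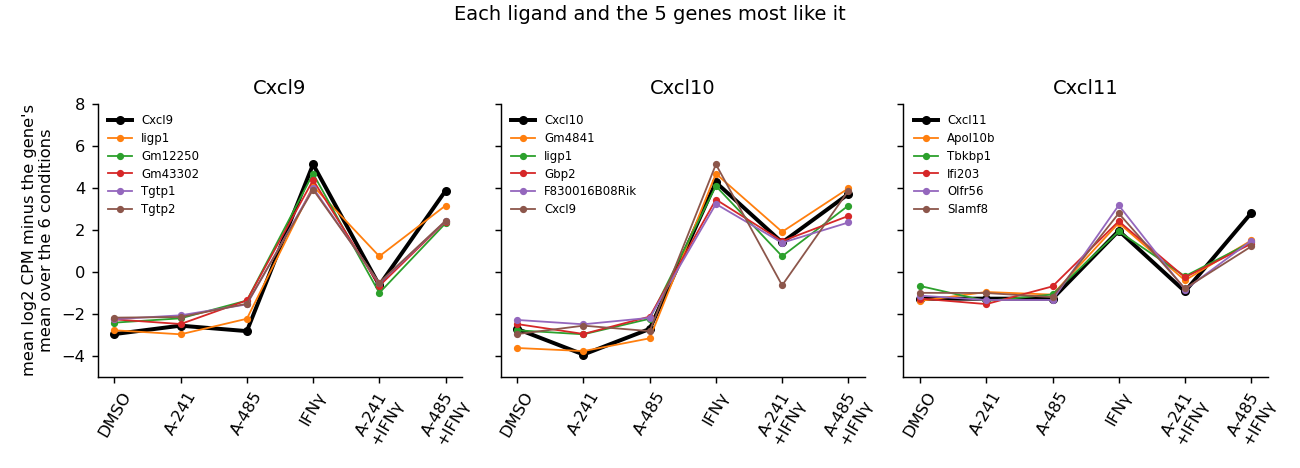
Mean log2 CPM of the 6 conditions (x axis), centred on each gene's own mean (y axis), for each ligand (thick black line) and the 5 genes most like it (thin lines). With A-485+IFNγ, Cxcl11 lies above its own IFNγ value (2.81 against 1.96), whereas the 5 genes beside it lie below theirs.

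The genes of the IFNγ receptor pathway were set beside the ligands. Of 14 genes, all tested, 4 were called higher with IFNγ, where 1.20% of all genes were. The median log2 fold change of the 14 was 1.20, against -0.003 for all genes. The 4 called were Stat2, which helps carry interferon signals to the nucleus, the transcription factors Irf1 and Irf8, and Socs1, a feedback inhibitor of Jak kinases. Irf8 and Socs1 had 2 and 6 counts with DMSO, and like the ligands they passed the filter on low counts through IFNγ-treated libraries. Irf1 rose by 5.05 on the log2 scale (SE 0.31, adjusted p = 3.52e-08). The call of Socs1 was lost in 2 of 6 fits without 1 library (adjusted p up to 0.0211), and its IFNγ libraries ran from 1.192 to 62.81 CPM. The receptor genes Ifngr1 and Ifngr2 had log2 fold changes of 0.07 and 0.04 and were not called. With A-241+IFNγ against IFNγ, where 3.54% of all genes were called lower, 2 of the 14 fell (median -0.85). These were Stat2 by 1.04 on the log2 scale (adjusted p = 0.00413) and Irf8 by 2.43 (0.00318). Each of these calls was lost in 4 of 6 fits without 1 library (adjusted p up to 0.0277 and 0.0214). Irf1 stood at 351.4 to 365.4 CPM with A-241+IFNγ and at 409.0 to 820.5 CPM with IFNγ, a log2 fold change of -0.87 that was not called (adjusted p = 0.0547). With A-485+IFNγ against IFNγ edgeR called 0 of the 14 (3 at an unadjusted p below 0.05, 0 in DESeq2, 0 in limma-voom), with a median of -0.42. For so few genes a count of 0 is near what the share of all genes called lower gives (0.535%). Without DMSO replicate 3 and IFNγ replicate 2 the counts for the 14 were 7 higher with IFNγ, 6 lower with A-241 and 3 lower with A-485. Over all 12135 genes tested in that setting they were 196, 713 and 287. Between A-241+IFNγ and A-485+IFNγ, where 0.510% of all genes were called lower, edgeR called 0 of the 14, which is near that share. Of the 14, 0 had an unadjusted p below 0.05. DESeq2 and limma-voom also called 0.

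Of 9 NF-κB genes listed, 8 were tested and edgeR called 0 higher with IFNγ, against 1.20% of all genes (1 at an unadjusted p below 0.05, 0 in DESeq2 and 0 in limma-voom). With A-241+IFNγ against IFNγ, where 3.54% of all genes were called lower, 1 of the 8 fell. This was Nfkbiz, an IκB family cofactor, by 1.45 on the log2 scale (SE 0.31, adjusted p = 0.00731), a call that was lost in 5 of 6 fits without 1 library (adjusted p up to 0.0435). Among 7 acetyltransferase and reader genes, which include the inhibitors' targets Ep300 and Crebbp, 1 was higher with A-241+IFNγ than with IFNγ, where 0.543% of all genes were. This was Brd2, a BET family reader of acetylated histones, with a log2 fold change of 1.23 (SE 0.28, adjusted p = 0.00996), and the call was lost in all 6 fits without 1 library (adjusted p up to 0.0445). Ep300 and Crebbp themselves had log2 fold changes of 0.42 and 0.35 and were not called. Brd2 shares 360 exon bases with H2-DMa, and reads there were counted for both genes.

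The receptor side of the axis was scarcely present in these cells. Cxcr3 had 1 count in all 18 libraries, the atypical receptor Ackr3 at most 6 counts in a condition, and Dpp4, a protease that trims the ligands, at most 2. Of the 9 genes for receptors and processing only Furin was tested. It was called neither with IFNγ against DMSO nor with either inhibitor against IFNγ alone, by edgeR, DESeq2 or limma-voom, and its unadjusted p was below 0.05 with A-241+IFNγ against IFNγ alone (log2 fold change -0.36).

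Other chemokines were set beside the CXCR3 ligands. Of 37 further chemokine genes in the table, 10 passed the filter, and edgeR called 0 of these with IFNγ against DMSO (2 at an unadjusted p below 0.05, 2 in DESeq2, 0 in limma-voom). The median log2 fold change was 0.16. Cx3cl1, a membrane-bound chemokine, had 99 counts with DMSO and 1540 with IFNγ (log2 fold change 3.54, adjusted p = 0.0124), and its IFNγ libraries ran from 5.362 to 112.1 CPM. Ccl2, which draws monocytes, had 0 counts with DMSO and 63 with IFNγ (adjusted p = 0.0409). Like the ligands, Ccl2 passed the filter on low counts through IFNγ-treated libraries, and its IFNγ libraries ran from 0.0 to 5.162 CPM. With A-241+IFNγ against IFNγ edgeR called 0 of the 10 as well (5 at an unadjusted p below 0.05, all lower, 1 in DESeq2, 0 in limma-voom), and their median was -1.32. Among chemokines edgeR called the 3 CXCR3 ligands with IFNγ, while Cx3cl1 and Ccl2 had positive log2 fold changes that did not pass the threshold. For 10 genes a count of 0 is near what the shares of all genes called give (1.20% higher with IFNγ and 3.54% lower with A-241). Without DMSO replicate 3 and IFNγ replicate 2, edgeR called 2 of the 10 higher with IFNγ and 4 lower with A-241. Over all 12135 genes it then called 196 higher and 713 lower.

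From a mixed list of 8 adhesion, cytokine, chemokine and checkpoint genes that act on T cells, 4 were tested. With IFNγ 1 of them was called higher, where 1.20% of all genes were. Cd274, which encodes the T cell inhibitory ligand PD-L1, had 1 count with DMSO and 312 with IFNγ (adjusted p = 2.82e-07). Like the ligands, Cd274 passed the filter on low counts through IFNγ-treated libraries. Its log2 fold change against IFNγ was -3.01 for A-241+IFNγ (SE 0.30, adjusted p = 1.77e-05) and -2.04 for A-485+IFNγ (SE 0.28, adjusted p = 0.00178). Cd274 shares 511 exon bases with an antisense gene. Its A-485 call was lost in 4 of 6 fits without 1 library (adjusted p up to 0.0181).

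The genes beside the ligands on chromosome 5 were few, and a count of 0 among them is near what the shares of all genes called give (1.20% higher with IFNγ and 3.54% lower with A-241). Of 34 other annotated genes with an end within 500 kb, 30 were in the table and 12 were tested. With IFNγ edgeR called 0 of the 12 (2 at an unadjusted p below 0.05, 0 in DESeq2, 0 in limma-voom), with log2 fold changes from -0.27 to 0.94. With A-241+IFNγ against IFNγ it called 0 of the 12 (4 at an unadjusted p below 0.05, all lower, 0 in DESeq2, 0 in limma-voom), with log2 fold changes from -0.95 to 0.50. Sdad1 and Nup54, the nearest tested genes on either side, had log2 fold changes of 0.36 and 0.21 with IFNγ and of -0.57 and 0.50 with A-241.

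**Figure D5:**
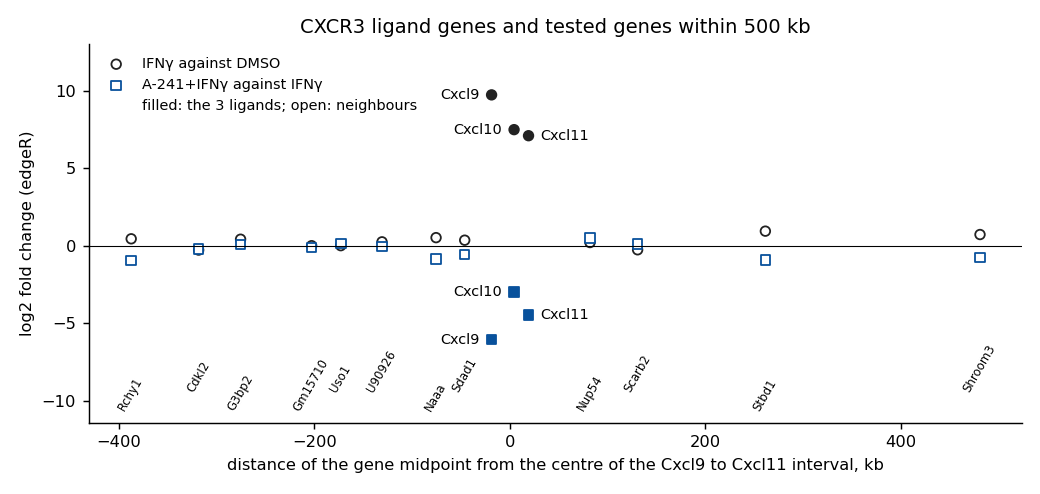
Fitted log2 fold change (y axis) of the 3 ligands (filled) and the 12 tested genes within 500 kb (open) by distance of the gene midpoint from the centre of the ligand interval (x axis, kb), for IFNγ against DMSO (circles) and A-241+IFNγ against IFNγ (squares). The neighbours lie between -0.95 and 0.94 in both, and the fitted IFNγ values of Cxcl9 and Cxcl11 rest on 2 and 0 counts with DMSO.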

How the data were processed

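QuantSeq 3′ libraries of 18 AT3 samples (500 ng RNA, 75-base reads) were analysed from the raw counts per gene that the authors deposited. Per the labels and methods, the authors used bcl2fastq 2.17.1.14, FastQC 0.11.5, cutadapt 1.7, HISAT2 2.1.0 (GRCm38/mm10) and featureCounts, with reads over several genes counted for each and no strand option. The annotation release is not given in the sources used here. Identifiers were joined to GENCODE vM21 (42462 of 43629 matched, and the other 1167 held 0.408% of counts and were kept).

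edgeR 4.0.16 (R 4.3.3) was run with filterByExpr, TMM factors and 1 mean per condition over all 18 libraries, which left 11964 genes, and Benjamini-Hochberg adjusted p values were called below 0.01. Log2 CPM used a prior count of 2. SEs were taken from the fold change and F statistic. Where 1 group held 1 to 9 counts and the other more than 3, and for Cxcl11 between IFNγ-treated groups, ratios of scaled counts with exact 95% intervals are given, and where it held 0, a floor of 3 counts over the group. DESeq2 1.42.0 and limma-voom (limma 3.58.1), other filters and scalings, a replicate block and the omission of libraries were alternatives.

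Named genes were the 3 ligands, the 5 genes most like each (at least 30 counts on average in their highest condition) and genes called from lists of pathways, markers, chemokines and neighbours; others are named for context after their values were seen. The members and lists were chosen with earlier results of these data known. A gene of the IFNγ receptor pathway list is not reported here. On data simulated for IFNγ against DMSO (11804 genes), edgeR called 78.4% of genes with a simulated log2 change of 2 and 11.5% of those with a change of 1, and made 3 false calls.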

Additional observations from a re-analysis of the deposited data

Results flagged for a closer look

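Relative to IFNγ alone, the fitted changes of Cxcl11 had opposite signs under the 2 inhibitors, and only the fall under A-241 was called. All 3 A-241+IFNγ libraries lay below the IFNγ libraries, as for 12.1% of genes. All 3 A-485+IFNγ libraries lay above them, as for 10.6% of genes. The difference between the changes was -5.36 on the log2 scale (SE 0.64, adjusted p = 0.0025 in edgeR). This value compares the 2 treatments and does not test the sign of either change. It rests on 2 counts against 97, and its call was kept in only 1 of 6 edgeR fits without 1 library (adjusted p up to 0.0189). The change under A-485 taken alone did not pass the threshold (adjusted p = 0.323).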

How the results depend on the processing

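Of 28 fitted fold changes of the ligands, 16 kept their direction and side of the threshold in every alternative run, and 12 differed in at least 1. Values are log2. With the replicate block the calls lost were Cxcl11 for IFNγ against DMSO (7.08, adjusted p = 0.0151), A-241+IFNγ against IFNγ (-4.46, 0.0116) and A-241+IFNγ against A-485+IFNγ (-5.37, 0.0144), and Cxcl9 for A-241+IFNγ against DMSO (3.64, 0.0105), and Cxcl10 for A-485 against DMSO turned to -0.014. Whether the numbers pair the samples is not settled, since deviations from means of 3 libraries cannot exclude a pairing. Over 45 pairs of libraries with the same number, the correlation of deviations ran from -0.80 to 0.48 (median -0.02), and 15 were over 0.1. Of 18 libraries, 5 correlated best with their own number. Fits of only the groups compared lost Cxcl11 for IFNγ against DMSO (7.13), A-241+IFNγ against IFNγ (-4.46) and A-485+IFNγ against DMSO (7.93, adjusted p = 0.0112). Cxcl9 under A-485 with IFNγ was called in DESeq2 (-1.34), in limma-voom (-1.26) and without DMSO replicate 3 and IFNγ replicate 2 (-1.53), and Cxcl10 in the last (-0.96). DESeq2 called the A-241 interaction of Cxcl9 (-6.99). With at least 10 counts in 3 libraries, Cxcl10 for A-485 against DMSO was -0.008, and with 1 added the Cxcl9 to Cxcl11 ratio, A-241+IFNγ against A-485+IFNγ, turned from 0.57 to -0.10, a value set by the added count. The cause was not tested.

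Leaving out 1 library gave 7.005 to 7.16 for Cxcl11 with IFNγ against DMSO, -7.13 to -3.82 for Cxcl11 and -1.53 to -1.12 for Cxcl9 with A-241+IFNγ and A-485+IFNγ, respectively, against IFNγ, -8.00 to -4.74 for Cxcl11 and -2.40 to -2.20 for Cxcl10 between the inhibitors, 2.92 to 6.46 for Cxcl9 with A-241+IFNγ against DMSO, -0.19 to 0.22 for Cxcl10 with A-485 against DMSO, and interactions of -9.67 to -6.13 (Cxcl9, A-241), -2.04 to 0.33 (Cxcl10, A-241) and -4.51 to 1.45 (Cxcl9, A-485).

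Fits of only the groups compared called 1 gene of the IFNγ receptor pathway higher with IFNγ, where 19 of 11333 genes were. They lost the single calls of Nfkbiz and Brd2 with A-241 and of Cd274 with A-485. Depth limits Cxcl11 in all conditions and all 3 ligands without IFNγ.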

Other observations

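Several immune genes under the filter on low counts are given as counts only, and their values had been seen when they were chosen. Icam1, an adhesion molecule that leukocytes bind, had 0 counts in the 3 conditions without IFNγ, 51 with IFNγ, 5 with A-241+IFNγ and 11 with A-485+IFNγ. Il15, a cytokine that sustains T and NK cells, had 5 counts with DMSO, 21 with IFNγ, 1 with A-241+IFNγ and 7 with A-485+IFNγ. Il18bp, a secreted inhibitor of IL-18, had 4 counts with DMSO, 20 with IFNγ, 3 with A-241+IFNγ and 2 with A-485+IFNγ. Ccl7, a monocyte chemokine, had 0 counts with DMSO, 5 with IFNγ, 2 with A-241+IFNγ and 11 with A-485+IFNγ, and the libraries of the last ran from 0.0 to 1.71 CPM and overlapped those with IFNγ alone. None of these was tested.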
